A study of Mus musculus with 4 samples.

Results

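The 39 genes described here mark cells that copy their DNA or divide. They were taken by symbol from the 32285 gene rows of the count matrices, and each of the 39 symbols matched a row. By textbook role, 15 belong to S phase (the copying of DNA), 19 belong to mitosis (the separation of the copies), and 5 are raised in dividing cells without being tied to a phase. Their levels were compared between cell classes of a mouse tumour and between tumours given vehicle and tumours given interleukin 27 (IL-27), a cytokine that acts on T cells and myeloid cells.

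A cell that divides runs through a fixed order of programmes. Cyclin E starts S phase, the MCM helicase opens the DNA, the clamp PCNA holds the polymerases on it, and enzymes such as ribonucleotide reductase and thymidylate synthase supply nucleotides. Cyclin A and cyclin B with CDK1 then carry the cell into mitosis, where Aurora and Polo kinases, kinetochore proteins and kinesins align the chromosomes until the anaphase-promoting complex ends the phase. In a tumour, the cancer cells, activated T cells, and immature or resident myeloid cells are known to divide, whereas mature neutrophils are known to have left the cycle.

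Tumours were grown from 1000000 cells of the mouse ovarian cancer line OV2944-HM1, placed under the skin of B6C3F1 mice aged 6 to 8 weeks. Both groups carried the same tumour and the same host, with no engineered allele named in the labels. The control group received vehicle and the other received recombinant mouse IL-27 at 100 ng per mouse into the tumour, on the day of implantation and every other day after it. On day 14 the tumours were digested, cells were enriched with beads against CD45, which sits on the surface of white blood cells, and a droplet kit that reads the 5' end of transcripts was used. Each group came as a single matrix, although the labels give 2 entries for it, and nothing ties a cell to an entry. Every difference therefore rests on n = 1 and has no replicate check and no test. How many mice were pooled is not given in the sources used here.

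After filtering, 10617 control cells held 53836151 UMIs (unique molecular identifiers, 1 per captured transcript) with a median of 2408 per cell. The IL-27 matrix held 9990 cells with 43622148 UMIs and a median of 1870.5. The matrices shared 133 cell barcodes. The 39 genes took 0.279% of control UMIs and 0.291% of IL-27 UMIs. Cells were classed by UMIs of marker genes that are not among the 39, and a class is called "like" a cell type because it rests on transcripts. Most classes were led by genes of their name, such as Krt18, Krt8 and Krt19 in tumour-like cells and Itgae, Clec9a and Xcr1 in type 1 dendritic-like cells. Genes used for gating, such as Foxp3 and Cd8a, were kept in this ranking, so it is no independent check of the names. The labels call the cells lymphocytes, yet 39.5% of control and 34.1% of IL-27 cells were neutrophil-like and only 6.40% and 7.24% were T-like. Tumour-like cells made up 2.75% and 2.50%, although the beads select for CD45. A small class gated on monocyte markers was led by antibody genes and is left unnamed here, without results. No cell type was assigned to 2144 control and 2047 IL-27 cells that met no gate. Levels are UMIs of a gene per 1000000 UMIs of the class (CPM), and ratios are IL-27 over control. A gene is called higher from a ratio of 1.5 upwards and lower from the inverse downwards, given 20 or more UMIs over both matrices, and is otherwise not tested or not called. Intervals are exact, at 95%, and cover counting error only.

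The promoters of the mitotic genes held a motif that most promoters of the S-phase genes lacked. Of the 39 genes, 32 had an entry in the RefSeq promoter table (build GRCm38.p6), from 250 bases before to 50 bases after the annotated start. Ccne2, Mcm4, Ccna2, Aurkb, Tpx2, Stmn1 and H2afz had none. The motif TTTGAA, known as the cell cycle genes homology region and bound by complexes that hold late genes down until G2, was searched on both strands. It stood in 12 of 16 mitotic promoters (75.0%), in 1 of 13 S-phase promoters (that of Mcm2) and in 18.1% of all 27025 promoters in the table. The CCAAT box, read as CCAAT on both strands, stood in 15 of 16 mitotic promoters (93.8%), 9 of 13 S-phase promoters (69.2%) and 37.9% of all. Both motifs together were found in 12 of 16 mitotic promoters and in 7.12% of all. The mitotic promoters without TTTGAA were those of Ccnb1, Birc5, Cenpe and Bub1. A match is a string of letters and not a bound site. The stretches below run from 130 bases before to 20 bases after the start, and their genes are among those named in the results that follow. Each stretch shown holds both motifs, so they do not stand for the promoters of all members. Not shown are the promoters of Cenpf, which holds both motifs, and of Cenpe and Bub1, which lack TTTGAA. Capitals mark matches of both motifs on either strand. The positions are Cdk1 at chr10:69352893-69353042 on the minus strand, Ccnb2 at chr9:70421535-70421684 on the minus strand, Cdc20 at chr4:118437324-118437473 on the minus strand, Ube2c at chr2:164769799-164769948 on the plus strand, Top2a at chr11:99024170-99024319 on the minus strand and Hmgb2 at chr8:57511713-57511862 on the plus strand.
Cdk1: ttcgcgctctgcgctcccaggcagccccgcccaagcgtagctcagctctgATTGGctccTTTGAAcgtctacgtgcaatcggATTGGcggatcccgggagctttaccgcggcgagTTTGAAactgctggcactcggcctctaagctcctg
Ccnb2: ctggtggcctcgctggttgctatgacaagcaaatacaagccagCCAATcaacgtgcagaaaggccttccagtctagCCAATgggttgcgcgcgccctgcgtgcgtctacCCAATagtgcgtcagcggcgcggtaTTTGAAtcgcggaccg
Cdc20: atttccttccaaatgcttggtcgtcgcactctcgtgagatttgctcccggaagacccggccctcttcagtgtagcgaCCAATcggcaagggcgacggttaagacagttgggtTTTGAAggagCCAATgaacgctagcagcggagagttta
Ube2c: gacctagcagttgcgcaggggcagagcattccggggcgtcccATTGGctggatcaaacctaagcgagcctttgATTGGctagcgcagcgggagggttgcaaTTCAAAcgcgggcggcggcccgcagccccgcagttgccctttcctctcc
Top2a: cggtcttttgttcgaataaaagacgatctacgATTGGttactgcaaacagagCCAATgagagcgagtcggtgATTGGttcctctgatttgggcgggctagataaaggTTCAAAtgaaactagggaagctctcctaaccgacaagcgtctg
Hmgb2: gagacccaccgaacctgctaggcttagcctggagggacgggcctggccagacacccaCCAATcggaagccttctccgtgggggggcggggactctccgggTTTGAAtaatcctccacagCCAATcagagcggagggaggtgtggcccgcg

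Sites of E2F factors, which switch on S-phase genes, were searched as TTTCCCGC, TTTGGCGC, TTTCGCGC and TTTGCCGC on both strands. They stood in 5 of 13 S-phase promoters (38.5%), namely those of Mcm3, Mcm5, Mcm6, Mcm7 and Pclaf, against 1 of 16 mitotic promoters (6.25%) and 2.32% of all. Matches of different motifs overlapped in 1 of the 32 promoters and in 44 of all 27025. The promoters of Mcm6 and Pclaf are shown because these genes leaned to opposite phases in tumour-like, T-like, CD8 T-like and C1q-low macrophage-like cells. In Treg-like, type 1 dendritic-like and macrophage-like cells 1 of the pair was called in neither direction. Capitals mark E2F and CCAAT matches on either strand, and the positions are Mcm6 at chr1:128359686-128359835 on the minus strand and Pclaf at chr9:65890193-65890342 on the plus strand.
Mcm6: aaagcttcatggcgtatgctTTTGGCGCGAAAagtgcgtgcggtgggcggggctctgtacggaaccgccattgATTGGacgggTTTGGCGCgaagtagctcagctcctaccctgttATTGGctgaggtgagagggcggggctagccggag
Pclaf: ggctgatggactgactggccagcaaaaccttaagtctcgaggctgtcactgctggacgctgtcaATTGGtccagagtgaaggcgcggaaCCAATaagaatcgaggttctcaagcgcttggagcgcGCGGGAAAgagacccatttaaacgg

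Over all kept cells the members were close to level between the matrices, with a mitotic sum of 526 and 571 CPM and an S-phase sum of 546 and 572 CPM. There Cenpf was the only one of 19 mitotic genes called higher (1 of 19, where 7.69% of 15868 tested genes were), and 0 were called lower (background 6.04%). Among the larger cell classes, the CD8 T-like cells held the highest mitotic level and the neutrophil-like cells the lowest. The summed mitotic level was 2018 CPM in control and 1792 CPM in IL-27 CD8 T-like cells (258 and 94 cells). Regulatory T-like cells (Treg-like, with Foxp3) followed at 1256 and 1310 CPM, and tumour-like cells at 817 and 1156 CPM. These larger classes stood in the same order in both matrices. Macrophage-like cells, which carry complement C1q genes, lay at 475 and 455 CPM. The type 1 dendritic-like cells lay at 463 CPM in control, close to the macrophage-like cells, and at 750 CPM in IL-27. Mature dendritic-like cells lay at 236 and 172 CPM, macrophage-like cells low in C1q (led by Ccl24, Mmp12, Mmp19 and Arg1) at 180 and 110 CPM, and neutrophil-like cells at 87.7 and 106 CPM. S-phase levels ran from 1734 and 1513 CPM in CD8 T-like cells to 83.8 and 107 CPM in neutrophil-like cells.

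**Figure D1:**
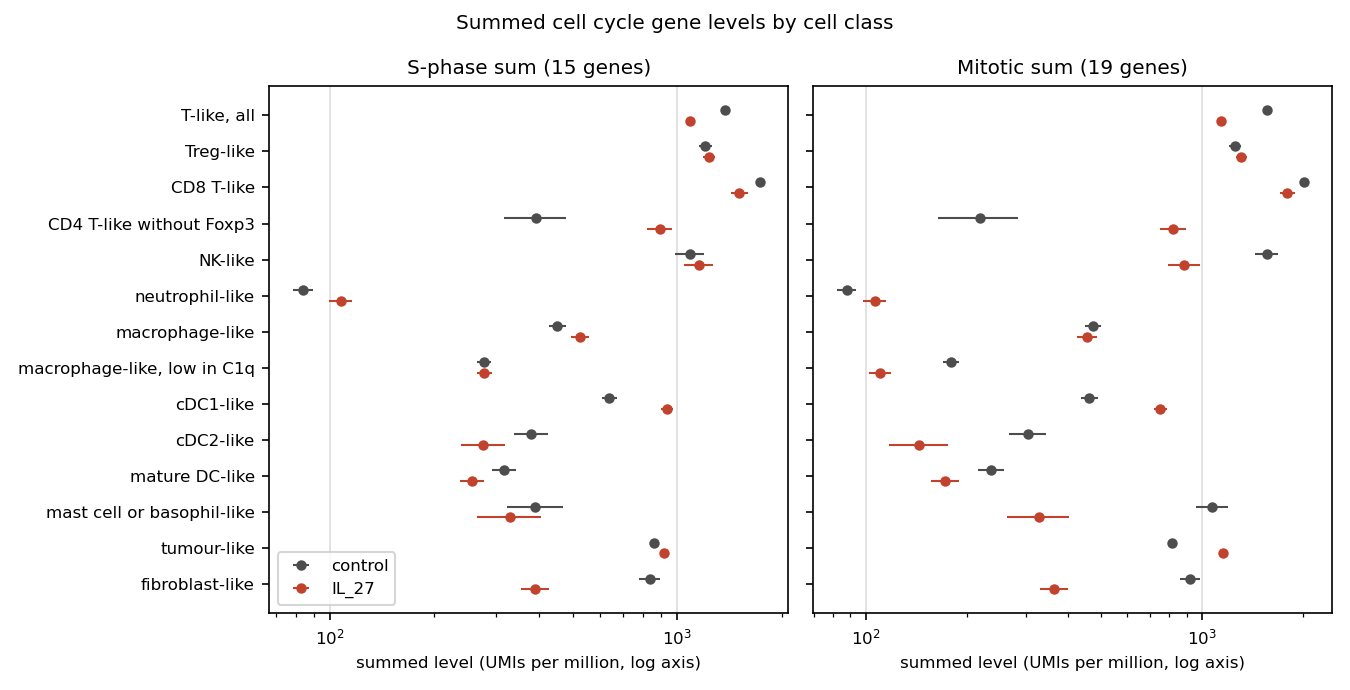
Summed level of the 15 S-phase and the 19 mitotic genes by cell class, in CPM, for the control and the IL-27 matrix, with exact 95% counting intervals. Among the classes drawn (neutrophil precursor-like cells, 18 and 3, and the unnamed class are not), CD8 T-like cells stand highest at 2018 and 1792 CPM for the mitotic sum, and neutrophil-like cells stand near 87.7 and 106 CPM.

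Single genes were often highest in the same class. In control cells, CD8 T-like cells had the highest level of Mki67 (a coat protein of mitotic chromosomes) at 308 CPM, of Ube2c (the ubiquitin-conjugating enzyme of the anaphase-promoting complex) at 258 CPM and of Cenpa (the histone that marks centromeres) at 372 CPM. H2afz, a histone variant with uses outside division, was highest in Treg-like cells at 4104 and 3699 CPM. Tubb5, a tubulin of the spindle and of the resting cytoskeleton, was highest in control CD8 T-like cells at 863 CPM and in IL-27 tumour-like cells at 548 CPM. Tubb5, Hmgb2 and H2afz belong to families with close copies, so the split of their reads is uncertain.

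Whether the 39 genes follow their textbook phase in these cells was asked with 50 other cell cycle genes, called companions, none of them among the 39. Cells rich in companions (at least 6 companion UMIs and at least 3 per 10000) were taken as leaning to S where S-phase companions gave at least 2 of 3 of these UMIs, and as leaning to G2/M where mitotic companions did. This grouping was chosen after the data were seen. Grouping by companions of a single phase, the first choice, placed 353 of 542 tumour-like cells in both phases and left 0 mitotic genes with 20 UMIs. In tumour-like cells 31 control and 38 IL-27 cells leaned to S, and 21 and 25 leaned to G2/M.

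All 19 mitotic genes were at least 1.5-fold higher in G2/M-leaning than in S-leaning tumour-like cells, where 8.4% of 10275 tested genes were. The log2 difference ran from 2.27 for Cdk1, the kinase that drives entry into mitosis, to 6.73 for Cenpf, an outer kinetochore protein, with a median of 4.70. Cenpf stood at 1.16 CPM in S-leaning and 140 CPM in G2/M-leaning control cells, and at 2.82 and 267 CPM in IL-27 cells. Plk1, the Polo kinase, stood at 1.16 and 88.5 CPM in control and at 1.13 and 85.4 CPM in IL-27. The contrast between the phases was thus present in each matrix. Cdk1, by comparison, was already at 34.3 and 33.8 CPM in S-leaning cells, against 180 and 153 CPM in G2/M-leaning cells.

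The S-phase genes split in the tumour-like cells. In S-leaning cells 9 of 15 were higher, against 13% of all genes. These were the E cyclins Ccne1 and Ccne2, the 6 helicase genes Mcm2, Mcm3, Mcm4, Mcm5, Mcm6 and Mcm7, and Pcna. Mcm6 stood at 204 and 87.8 CPM in S-leaning and G2/M-leaning control cells and at 202 and 67.7 CPM in IL-27 cells. The other branch leaned to G2/M: 5 of 15 were higher there, namely Pclaf (a PCNA-binding factor, log2 difference 1.60), Rrm1 and Rrm2 (the subunits of ribonucleotide reductase, 0.88 and 0.79), Tyms (thymidylate synthase, 0.79) and Tk1 (thymidine kinase, 0.71). Dut, which removes dUTP, was called in neither direction at a log2 difference of -0.18. Pclaf stood at 70.3 and 257 CPM in control and at 73.8 and 190 CPM in IL-27, so in both matrices it was higher in the G2/M-leaning cells, opposite to Mcm6.

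T-like cells had the same S-leaning genes and fewer S-phase genes on the G2/M side. All 19 mitotic genes were higher in the G2/M-leaning T-like cells (background 12.4%), with log2 differences of 1.91 to 6.83. Of the S-phase genes, 9 of 15 were higher in S-leaning cells (background 16.2%), the same 9 as in the tumour-like cells, and Pclaf was again higher in G2/M-leaning cells by 0.95 on the log2 scale, with Tyms, Rrm1, Rrm2, Tk1 and Dut called in neither direction. Ube2c stood at 19.7 CPM in S-leaning and 1490 CPM in G2/M-leaning control T-like cells, and at 15.8 and 860 CPM in IL-27. The T-like cells held 70 control and 54 IL-27 cells that leaned to S and only 16 and 10 that leaned to G2/M. In type 1 dendritic-like cells 14 of 14 mitotic genes with 20 UMIs were higher in G2/M-leaning cells (background 15.7%) and 10 of 13 S-phase genes were higher in S-leaning cells (background 17.4%), though only 2 control and 6 IL-27 cells leaned to G2/M. The other classes are given by their counts over both matrices. In CD8 T-like cells 18 of 18 tested mitotic genes were higher in G2/M-leaning cells (background 13.1%) and 10 of 14 S-phase genes in S-leaning cells (background 15.1%). In Treg-like cells the counts were 13 of 13 (background 19.3%) and 6 of 13 (background 18.5%), and in C1q-low macrophage-like cells 7 of 7 (background 15.2%) and 7 of 9 (background 18.5%). Mcm4, Pcna and Rrm2 were higher in S-leaning Treg-like cells in IL-27 only, with G2/M over S ratios of 0.343, 0.438 and 0.224. In control these ratios were 1.05, 1.14 and 3.36, the last from 5 and 6 UMIs. Pclaf and Rrm1 were higher in G2/M-leaning Treg-like cells. The C1q-low G2/M side rested mostly on control UMIs, with 155 of Ube2c in control and 6 in IL-27, where 1 UMI equalled 97.3 CPM.

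Macrophage-like cells held the phases apart less clearly. Of 12 mitotic genes with 20 UMIs, 9 were higher in G2/M-leaning cells, where the background was 24.1%. Mki67, Ccna2 (cyclin A) and Cdk1 were called in neither direction, at log2 differences of 0.06, 0.00 and 0.54. For Ccna2 the matrices went opposite ways. Its G2/M over S ratio was 2.72 (0.823 to 14.2) in control, from 23 and 3 UMIs. In IL-27 it was 0.232 (0.0499 to 0.914), from 4 and 7 UMIs. Mki67 stood at 249 CPM in S-leaning and 260 CPM in G2/M-leaning macrophage-like cells over both matrices. Of 10 S-phase genes, 8 were higher in S-leaning cells (background 13.1%). Mki67 also differed between the matrices, at 367 and 214 CPM in S-leaning and G2/M-leaning control cells and at 27.6 and 358 CPM in IL-27 cells, from 26 and 73 UMIs in all. These cells were shallow, with a median of 4154.5 UMIs in S-leaning control cells against 56092 in the tumour-like cells, and the part of depth in the weaker contrast was not tested.

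**Figure D2:**
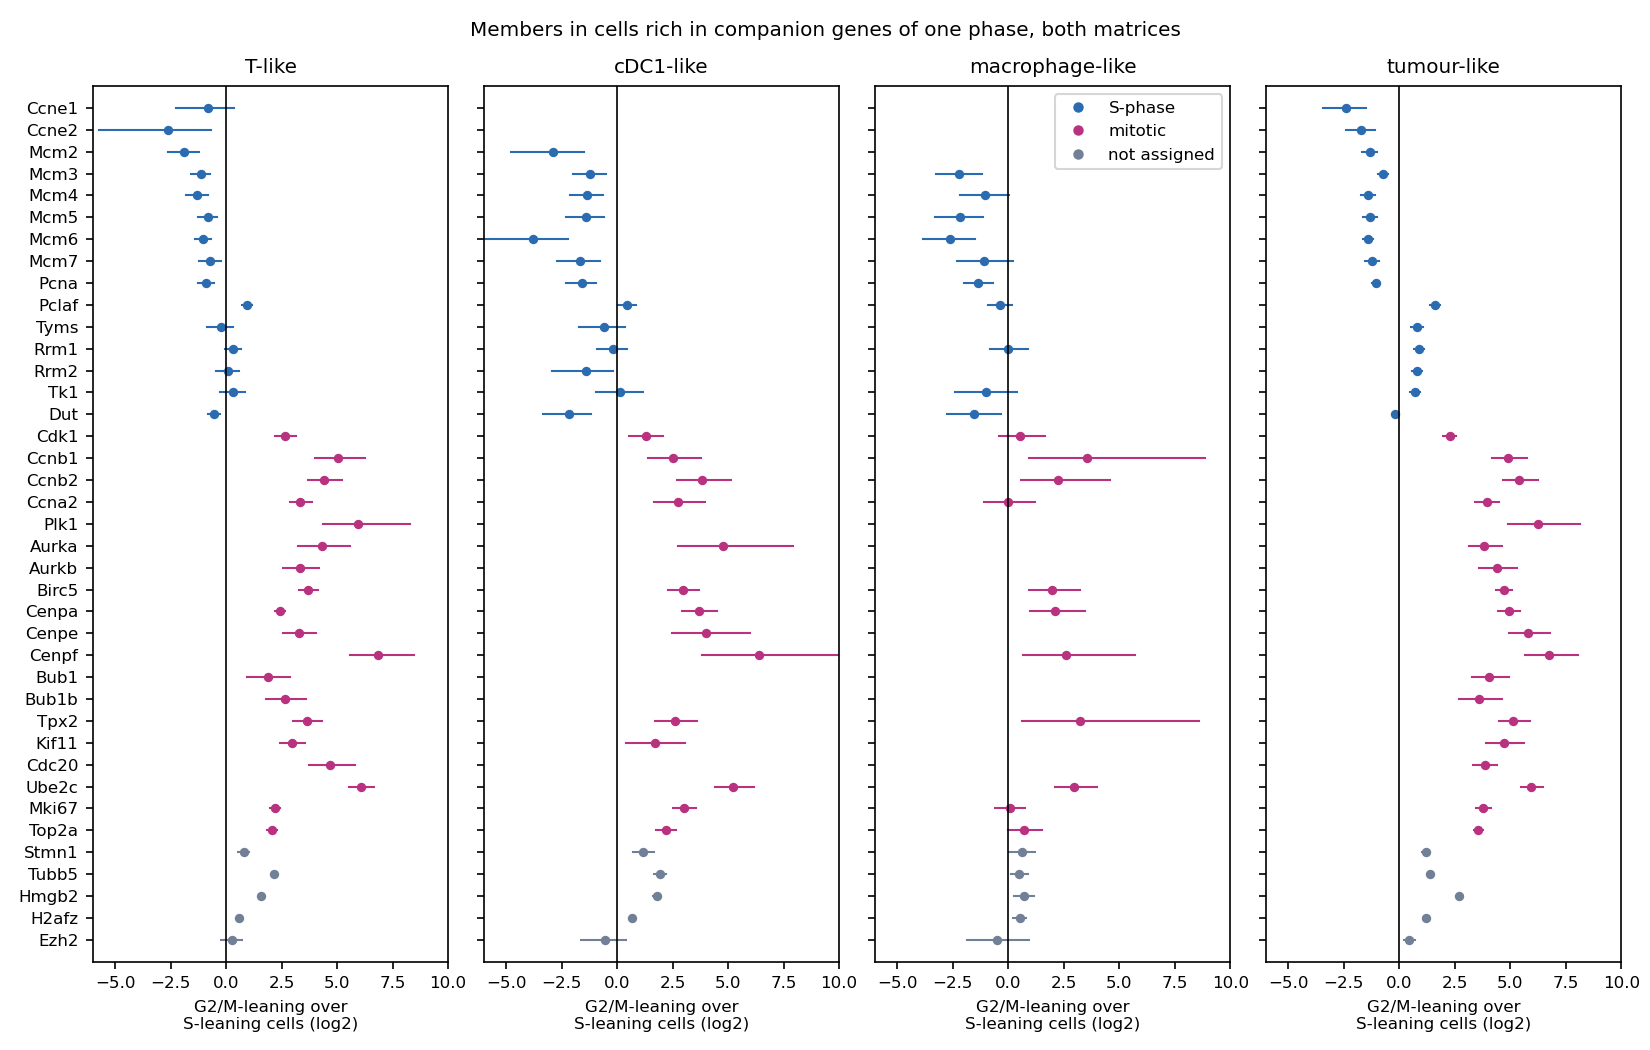
Log2 ratio of each gene's level in G2/M-leaning over S-leaning cells, in T-like, type 1 dendritic-like, macrophage-like and tumour-like cells, over both matrices, with exact 95% counting intervals. The mitotic genes lie to the right of 0 in T-like and tumour-like cells, with Cenpf farthest at 6.83 and 6.73, and the MCM genes and Pcna lie to the left; genes under 20 UMIs, or with 0 in either group, are not drawn.

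The 5 genes with no fixed phase leaned to G2/M where they leaned at all. Hmgb2, a chromatin protein, was higher in G2/M-leaning tumour-like cells by 2.71 on the log2 scale, at 147 and 1078 CPM in control and at 213 and 1251 CPM in IL-27. Tubb5, H2afz and Stmn1 (stathmin, which takes microtubules apart) were higher there by 1.38, 1.20 and 1.19. Ezh2, a histone methyltransferase, was called in neither direction in tumour-like cells (0.45) or T-like cells (0.27). Ezh2 therefore stood nearest to equal levels among these 5 genes in both classes.

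In the tumour-like cells, mitotic genes were higher with IL-27 and S-phase genes were nearly level. The mitotic sum was 817 CPM (801 to 833) in 292 control cells and 1156 CPM (1136 to 1177) in 250 IL-27 cells, a ratio of 1.42 (1.38 to 1.45). Called higher were 8 of 19 mitotic genes and called lower were 0, where 5.15% of 11963 tested genes were called higher and 7.77% lower. The median log2 ratio was 0.52 over the mitotic genes and -0.06 over all tested genes. The S-phase sum was 859 CPM in control and 914 CPM in IL-27, a ratio of 1.06 (1.03 to 1.09), and 0 of 15 S-phase genes were called in either direction. Without the 3 cells richest in the 39 genes in each matrix, the mitotic ratio was 1.30 and 5 genes were called higher. With the 8% of cells most like doublets removed it was 1.43 with 9 genes called, and without the shared barcodes it was 1.42 with 8.

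Among the cyclins and kinases of the tumour-like cells, the differences were uneven. Ccnb1 (cyclin B1) was called higher, at 19.6 CPM in control and 32.2 CPM in IL-27. Ccnb2 (cyclin B2) stood at 31.7 and 43.2 CPM and Aurka (the Aurora kinase of the spindle poles) at 12.6 and 18.1 CPM, ratios of 1.36 and 1.44 that missed the call. Cdk1, at 49.4 and 51.3 CPM, was level within its interval of 0.923 to 1.17. Aurkb and Birc5 act in the same chromosomal passenger complex, yet Aurkb stood at 24.8 and 20.6 CPM and Birc5 at 107 and 123 CPM. Ccna2 (ratio 1.17) and Plk1 (1.26) lay between.

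Cenpf, Cenpe and Bub1 had the largest ratios among the 19 mitotic genes of the tumour-like cells. Cenpf stood at 22.5 CPM in control and 57.3 CPM in IL-27, a ratio of 2.54 (2.2 to 2.94). Cenpe, a kinesin that moves chromosomes to the spindle equator, stood at 24.6 and 47.2 CPM (1.92), and Cenpa at 48.4 and 79.7 CPM (1.65). Bub1 and Bub1b, kinase and kinase-like arms of the spindle checkpoint, were called higher at 1.82 and 1.57. Of the 7 genes for centromere, checkpoint and spindle, 5 were called higher, and the spindle genes Tpx2 (1.18) and Kif11 (1.20) were not. The genes of mitotic exit were both called higher: Ube2c stood at 85.9 and 148 CPM (1.73) and Cdc20, the activator of the anaphase-promoting complex, at 19.2 and 31.8 CPM (1.66). Top2a, the topoisomerase that untangles sister chromosomes, stood at 164 and 244 CPM, just under the call at 1.49, and Mki67 at 83.7 and 103 CPM (1.23).

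The share of tumour-like cells with a transcript was larger for Cenpf and Ube2c too, by less than the level. Whether these shares, from 292 and 250 cells, differ beyond counting error was not tested. Cenpf was seen in 13% of control and 18.8% of IL-27 tumour-like cells, and Ube2c in 19.9% and 25.2%. Median depth of the class was 40502 and 40222 UMIs. In neutrophil-like cells, which should lack both genes, Cenpf was seen in 0.214% and 0.147% of cells and Ube2c in 0.405% and 0.675%, at median depths of 2156 and 1607 UMIs. The 3 richest cells held 27.5% of Cenpf UMIs in control and 33.3% in IL-27.

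Ratios of all genes in the tumour-like cells moved with transcript length. With the tested genes cut into 5 bins by longest transcript, the median log2 ratio was -0.17 in the shortest bin and 0.10 in the longest bin. Other classes moved in the same direction, and the T-like cells more so, at -0.22 and 0.24. The neutrophil-like cells had -0.11 and 0.20, and the type 1 dendritic-like cells -0.07 and 0.12. The calls given for other classes were not centred on length. Cenpf (11130 bases), Mki67 (10061), Cenpe (7910) and Top2a (5221) are the longest of the mitotic genes, whereas Cdc20 (1793) and Ube2c (2191) are short. With each gene centred on genes of like length, an alternative chosen after the data were seen, the mitotic ratio was 1.43 with 10 genes called higher, and the S-phase ratio was 1.14.

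S-phase genes of the tumour-like cells stayed within the call. Pcna came nearest, at 83.7 CPM in control and 121 CPM in IL-27, a ratio of 1.45 (1.33 to 1.57). The helicase genes ran from 0.90 for Mcm6 (95 and 85.5 CPM) to 1.24 for Mcm5 (26.1 and 32.4 CPM), with Mcm2 at 1.04, Mcm3 at 0.992, and Mcm4 and Mcm7 both at 1.21. The nucleotide genes were level as a group, at 402 and 400 CPM (ratio 0.995), with Rrm2 lowest at 0.804 and Dut highest at 1.09. Among the genes of no fixed phase, Hmgb2 was called higher, at 265 and 413 CPM (1.56), and Tubb5 was lower without reaching the call, at 715 and 548 CPM (0.766).

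In type 1 dendritic-like cells, which present antigen to CD8 T cells, genes of both phases were higher with IL-27. The mitotic sum was 463 CPM (437 to 490) in 208 control cells and 750 CPM (718 to 784) in 222 IL-27 cells, a ratio of 1.62 (1.51 to 1.75). Called higher were 11 of 19 mitotic genes, where 9.2% of tested genes were, and 0 were called lower, where 7.3% were. The S-phase sum was 638 CPM in control and 938 CPM in IL-27, a ratio of 1.47 (1.38 to 1.57), with 7 of 15 genes called higher and 0 lower. The median log2 ratio was 0.71 over mitotic and 0.53 over S-phase genes, and 0.02 over all tested genes.

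The replication genes led among the S-phase genes of these cells. Mcm6 stood at 25.9 CPM in control and 55.9 CPM in IL-27, a ratio of 2.16 (1.61 to 2.94), and Pcna at 98.7 and 166 CPM (1.68). Mcm2, Mcm5 and Mcm7 were called higher at 1.75, 1.83 and 1.80, Pclaf at 1.67 and Ccne1 at 1.71, the last from 12 and 21 UMIs. None of the 5 nucleotide genes reached the call, with ratios from 1.08 for Tyms to 1.44 for Dut. Mcm3 (1.23), Mcm4 (1.08), Rrm1 (1.42), Rrm2 (1.28), Tk1 (1.21) and Ccne2 (0.799, from 11 and 9 UMIs) also missed it.

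The mitotic genes called higher in the type 1 dendritic-like cells came from each role. Aurka stood at 3.13 CPM in control and 17.2 CPM in IL-27, from 8 and 45 UMIs, a ratio with an interval of 2.56 to 13.5. Ube2c stood at 49.8 and 120 CPM (2.41), and Ccnb2 at 12.9 and 31.8 CPM (2.46). Cenpe (2.42), Cenpf (2.06), Bub1 (3.17), Bub1b (2.13), Plk1 (2.77), Tpx2 (1.67), Top2a (1.64) and Cdk1 (1.53) were called higher as well. Cdc20 went the other way without a call, at 14 and 10 UMIs, and Mki67 stood at 90.5 and 125 CPM (1.38).

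A few cells held a large part of the mitotic UMIs of this class, more so in control. The 3 richest cells held 38.3% of the mitotic UMIs in control and 18.5% in IL-27. With the 3 cells richest in the 39 genes left out of each matrix, the mitotic ratio was 2.02 and 17 genes were called higher, so the ratio was larger without them. The share of these cells that passed a threshold of companion UMIs after thinning did not differ beyond counting error, at 8.37% in control and 7.87% in IL-27, a ratio with an interval of 0.451 to 1.96. Without 5 companions named further on, it was 5.91% and 9.26% (0.729 to 3.51). Median depth of the class was 10284 UMIs in control and 7319 in IL-27.

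In macrophage-like cells low in C1q the mitotic genes were lower with IL-27. The mitotic sum was 180 CPM (170 to 190) in 1248 control cells and 110 CPM (102 to 119) in 1552 IL-27 cells, a ratio of 0.614 (0.558 to 0.675). Of 17 mitotic genes with 20 UMIs, 11 were called lower, where 7.98% of tested genes were, and 0 were called higher, where 5.38% were. The S-phase sum was level at 278 and 279 CPM (0.938 to 1.07), with 3 of 14 genes called lower (Mcm7, Pclaf and Dut) and 0 higher. That sum includes Pcna, which was higher with IL-27, as given below. The median log2 ratio was -0.25 over the S-phase genes and 0.002 over all tested genes. Nucleotide genes summed to 53.8 and 37.4 CPM (0.695, 0.586 to 0.822). A level sum therefore does not mean that the single S-phase genes were level. With the markers' minimum per 10000 UMIs doubled, an alternative chosen after the data were seen, the mitotic ratio was 0.776 and 3 genes were called lower, so the size rests on where the class is bounded. At a minimum of 50 UMIs a gene, 5 were called lower.

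Among the mitotic genes of the C1q-low cells, Ube2c had the largest difference in level. It stood at 29.5 CPM in control and 11.2 CPM in IL-27, from 204 and 68 UMIs, a ratio of 0.38 (0.284 to 0.502). Birc5 (survivin, the inhibitor of apoptosis in the passenger complex) stood at 14.7 and 7.41 CPM (0.502), Top2a at 19.5 and 11.7 CPM (0.599) and Mki67 at 16.9 and 10.2 CPM (0.603). Kif11, the kinesin that pushes spindle poles apart, had 19 and 2 UMIs. Ccna2 (0.39), Tpx2 (0.396), Plk1 (0.498), Cenpf (0.518), Aurkb (0.592) and Ccnb2 (0.613) were also called lower, each from fewer than 60 UMIs over both matrices.

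Pcna and Ezh2 differed in the other direction in the C1q-low cells. Pclaf stood at 28.8 and 12.8 CPM (0.446), whereas Pcna, whose protein it binds, stood at 81.3 and 114 CPM (1.40). Stmn1 was called lower, at 36.1 and 19.9 CPM (0.551), and Ezh2 was called higher, at 7.81 and 12.7 CPM (1.62). Pcna thus ran against the mitotic genes in this class, without reaching the call. Median depth of the class was 4012 UMIs in control and 2805.5 in IL-27, and the part of depth in the shares of cells was not tested.

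Macrophage-like cells with C1q showed little difference. The mitotic sum was 475 and 455 CPM, a ratio of 0.959 (0.881 to 1.04), with 1 of 19 genes called higher (Plk1, from 12 and 14 UMIs) and 1 lower (Cdc20, 0.545), against 7.64% and 7.9% of tested genes. The S-phase sum was 452 and 526 CPM (1.16), with 0 of 14 genes called. Stmn1 was called higher, at 84.3 and 137 CPM (1.62), and Ezh2 lower (0.646). Stmn1 therefore differed in opposite directions in the macrophage-like classes with and without C1q.

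T-like cells looked different as a whole and by subset. Over all T-like cells the mitotic sum was 1561 CPM in control and 1141 CPM in IL-27 (0.731), with 7 of 19 genes called lower, against 10.7% of tested genes, and 0 called higher, against 10.1%. Those 7 were Cdk1, Ccnb1, Ccnb2, Birc5, Tpx2, Cdc20 and Ube2c. Of 15 S-phase genes, 2 were called lower (Tyms and Tk1), near the background of 10.7%, and 0 higher. The mix of subsets differed, with 258 control and 94 IL-27 CD8 T-like cells and 216 and 289 Treg-like cells. Within Treg-like cells the mitotic sum was 1256 and 1310 CPM, a ratio of 1.04 (0.984 to 1.10), and 0 of 19 mitotic genes were called in either direction, against 9.91% of tested genes higher and 11.1% lower. The S-phase ratio there was 1.03 (0.966 to 1.09). Of 15 S-phase genes, 1 was called higher (Ccne1, from 12 and 20 UMIs) and 1 lower (Tyms, at 54.0 and 29.4 CPM, 0.544), both under these backgrounds. Mki67 stood at 244 and 232 CPM in Treg-like cells and was seen in 20.8% and 20.4% of them.

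Within CD8 T-like cells the sums were lower by less than the call. The mitotic ratio was 0.888 (0.839 to 0.941) and the S-phase ratio 0.872 (0.819 to 0.928). Both turned to 1.03 and 1.01 when the matrices were scaled by 6 housekeeping genes, so their direction depends on the scaling. Called lower were 2 of 19 mitotic genes, Ccnb2 (70.3 and 38.8 CPM, 0.552) and Aurkb (0.626), under the background of 13.2% of tested genes. Aurka (1.64) was the only 1 of 19 called higher, under the background of 10.5%. Of 15 S-phase genes, 1 was called lower (Ccne2, from 33 and 5 UMIs) and 0 higher, also under these backgrounds. Tubb5 differed most, at 863 and 455 CPM (0.527). The 3 richest cells held 17.8% of the mitotic UMIs in control and 39.8% in IL-27.

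The T-like cells with Cd4 and without Foxp3 went the other way from few cells. Their mitotic sum was 218 CPM in 50 control cells and 821 CPM in 121 IL-27 cells, a ratio of 3.76 (2.84 to 5.08). Of 6 mitotic genes with 20 UMIs, 5 were called higher, against 19.7% of tested genes, and 0 lower, against 13.2%, and of 10 S-phase genes 8 were. Mki67 rested on 3 and 108 UMIs and Hmgb2 on 184 and 747 (1.67). The 3 richest cells held 25.9% of the mitotic UMIs in control and 55.4% in IL-27.

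In some small classes 3 cells held most of the mitotic UMIs. In NK-like cells (49 and 64) the mitotic sum was 1560 and 885 CPM, of which the 3 richest cells held 88.0% and 71.7%, with 8 of 12 tested mitotic genes called lower (background 19.9%) and 0 higher (12.5%). In mast cell-like cells (54 and 39) the sum was 1072 and 327 CPM, with 84.7% and 88.9% in 3 cells, 9 of 9 genes called lower (background 18%) and 0 higher (14.9%). In fibroblast-like cells (56 and 75) the sum was 922 and 363 CPM, a ratio of 0.393 (0.350 to 0.441), with 12 of 16 genes called lower against 15.6% of tested genes, 0 called higher against 12.4%, and 47.2% and 72.3% of the UMIs in 3 cells. Type 2 dendritic-like cells (65 and 75) stood at 303 and 144 CPM, with 3 of 5 tested genes called lower (background 11.9%) and 0 higher (13.8%), and 44.6% and 24.5% of the UMIs in 3 cells. Mature dendritic-like cells (224 and 330) stood at 236 and 172 CPM. The mature dendritic-like cells had 5 of 9 tested mitotic genes called lower, against 9.77% of tested genes, and 0 called higher, against 11.5%, with 36.4% and 24.1% of the UMIs in 3 cells.

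Neutrophil-like cells had Mki67 without its usual partners. Mki67 stood at 52.9 CPM in control and 66.4 CPM in IL-27, about the level in macrophage-like cells (53.3 and 47.0 CPM). It came from 535 UMIs in 221 of 4198 control cells and 401 UMIs in 152 of 3409 IL-27 cells. Top2a stood at only 3.17 and 5.96 CPM, from 32 and 36 UMIs. The ratio of Mki67 to Top2a UMIs, compared here only between classes, was 16.7 and 11.1 in neutrophil-like cells, against 1.17 and 0.932 in T-like cells and 1.20 and 0.844 in macrophage-like cells.

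Few of the neutrophil-like cells with Mki67 held other mitotic genes. Of neutrophil-like cells with Mki67, 5.88% (3.17 to 9.85) in control and 3.29% (1.08 to 7.51) in IL-27 held any of Top2a, Cdk1, Ccnb1, Ccnb2, Birc5, Ube2c, Tpx2 and Kif11. Of neutrophil-like cells without Mki67, 1.99% and 2.30% did, at median depths of 2137 and 1590 UMIs against 2679 and 2094.5 in cells with Mki67. The same share was 75.0% and 67.3% in T-like cells with Mki67 and 92.6% and 93.3% in tumour-like cells with Mki67. These classes were deeper, with medians over all their cells of 6013 and 4289 UMIs (T-like) and 40502 and 40222 (tumour-like). The part of depth in these shares was not tested. Over all kept cells the ratio of Mki67 to Top2a UMIs was 1.01 and 0.747. The part of free RNA in the Mki67 of neutrophil-like cells was not tested.

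**Figure D3:**
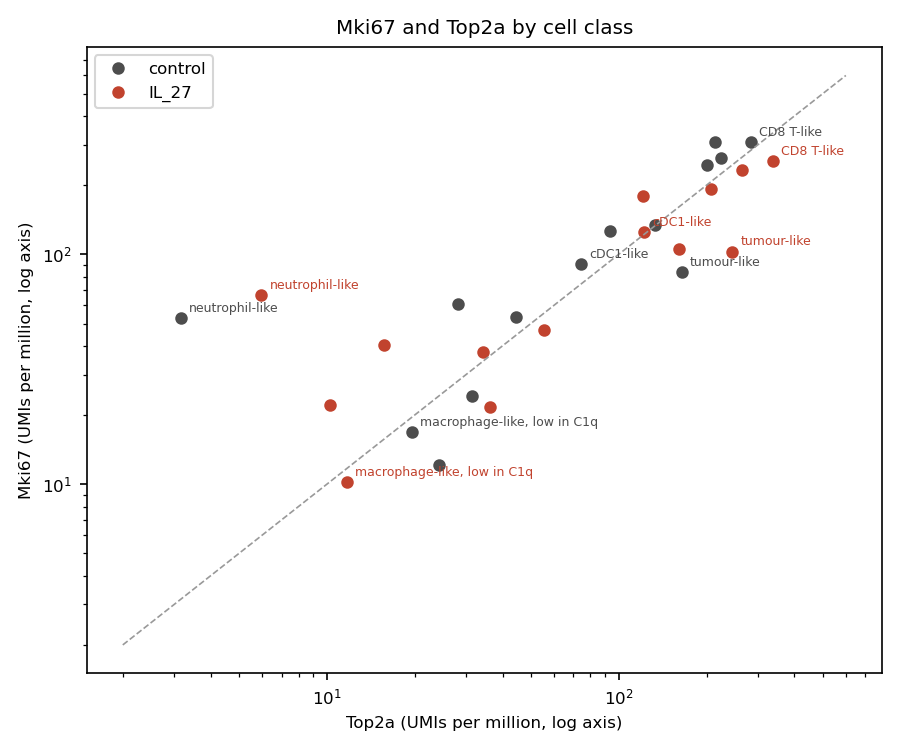
Level of Mki67 against Top2a in each cell class and matrix, in CPM on log axes, with a dashed line at equal levels. Most classes lie near the line, and the neutrophil-like cells lie far above it at 52.9 and 66.4 CPM of Mki67 for 3.17 and 5.96 CPM of Top2a.

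A few of the other 38 genes were also present in neutrophil-like cells. Hmgb2 stood at 416 and 448 CPM and was seen in 49.8% and 44.6% of cells. H2afz stood at 197 and 194 CPM, Pcna at 54.9 and 82.4 CPM (called higher at 1.5) and Tubb5 at 32.4 and 22.0 CPM. Cenpa, at 13.8 and 17.2 CPM, was the next, and every other S-phase and mitotic gene lay below 6 CPM in both matrices. Of 8 tested mitotic genes, Ube2c and Top2a were called higher (2 of 8, background 11.6%) and Aurka and Tpx2 lower (2 of 8, background 9.62%), all from fewer than 70 UMIs over both matrices. Of 11 tested S-phase genes, 1 was called higher (Pcna) and 3 lower, against the same backgrounds. Those 3 were nucleotide genes, which summed to 10.1 CPM in control and 5.96 CPM in IL-27 (0.59, 0.392 to 0.871). Granule-producing precursors, which do divide, met their gate in only 18 control and 3 IL-27 cells.

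The share of cells in cycle was estimated from the companions alone, after each cell was thinned to 1000 UMIs. A cell counted as cycling with at least 2 companion UMIs of 55 genes. In neutrophil-like cells this gave 12.3% in control and 10.8% in IL-27, but 0.214% and 0.391% without Cks2, Kif23, Ckap2l, Cdt1 and Mcm10. Cks2 alone stood at 407 and 310 CPM there. Shares without those 5 genes, a choice made after the data were seen, are given beside the planned ones. Since these 5 were dropped for their counts in neutrophil-like cells, the low neutrophil-like share without them follows from that choice and is no background for the other classes.

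Tumour-like cells had the clearest difference in this share. In control it was 15.3% (11.3 to 20.1, 281 cells) and in IL-27 it was 28.4% (22.8 to 34.5, 243 cells), a ratio of 1.86 (1.25 to 2.78), and 11.4% and 24.3% without the 5 genes (ratio 2.13, 1.36 to 3.39). By phase, the S companions gave 7.12% and 17.3% (ratio 2.43, 1.39 to 4.37) and the mitotic companions 7.83% and 9.88% (1.26, 0.678 to 2.36). The intervals of these ratios overlap, so the shares do not tell which phase differed more. In summed levels the S companions stood at 444 and 492 CPM (ratio 1.11, 1.07 to 1.15). The mitotic companions stood at 682 and 891 CPM (1.31, 1.27 to 1.35). The summed companions thus differed more for mitosis, as the summed members did. Without thinning, 84.9% and 86.8% of tumour-like cells passed, as cells this deep nearly always do.

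The share was lower with IL-27 in C1q-low cells by the planned set only. C1q-low cells had 3.96% in control and 1.65% in IL-27 (ratio 0.416, 0.234 to 0.719), but 2.45% and 1.41% without the 5 genes (0.298 to 1.09), where the interval holds 1. With the planned set the ratio was 0.754 when cells were thinned to 2000 UMIs and 0.774 when 1 companion UMI was enough, so its size depends on these settings. CD8 T-like cells had 27.3% and 26.1%, the highest share among control classes, and Treg-like cells 15.7% and 17.1%. Macrophage-like cells had 10.2% and 12.1%, and 8.57% and 8.51% without the 5 genes. Cells under 1000 UMIs were left out, 1578 in control and 1997 in IL-27 over all classes.

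**Figure D4:**
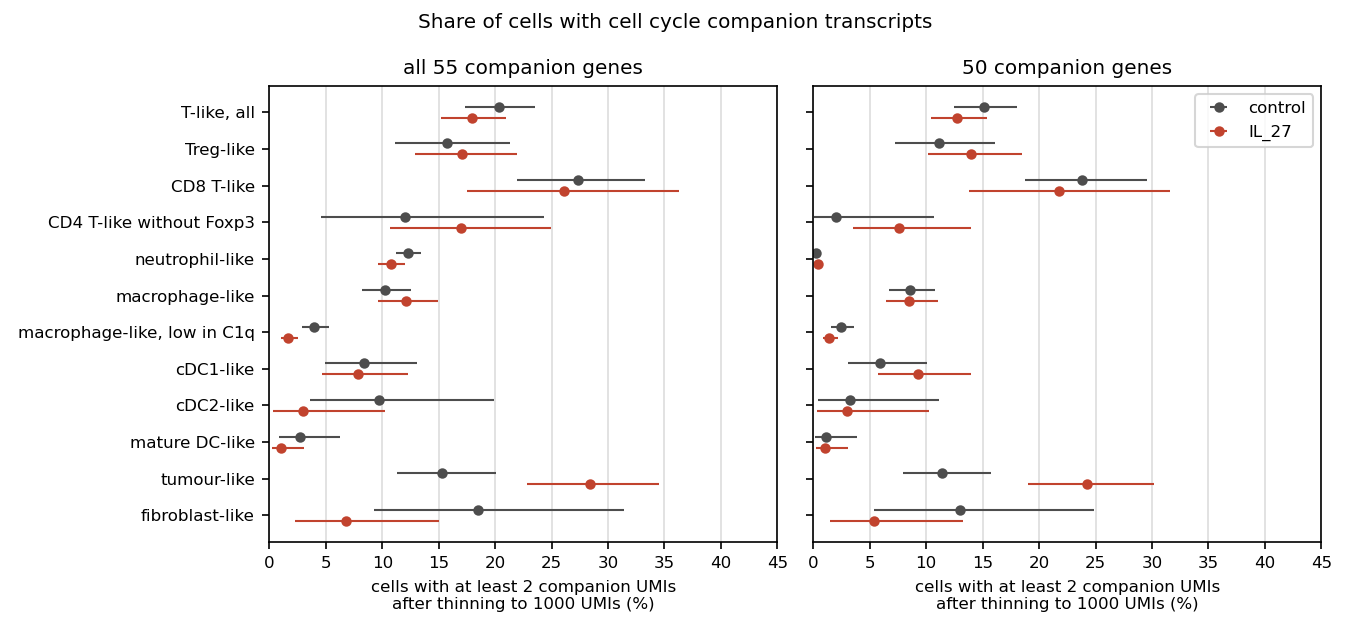
Percent of cells counted as cycling after thinning to 1000 UMIs, by class and matrix, with all 55 companions and with 50 (exact 95% intervals). Tumour-like cells stand at 15.3% in control and 28.4% in IL-27 with 55 genes, and control neutrophil-like cells at 12.3% with 55 genes and 0.214% with 50.

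The genes that start and restrain the cycle were read from a separate list of 30. Ccnd2 (cyclin D2, which answers growth signals in lymphocytes) was called higher in every T-like and NK-like class. It stood at 249 and 429 CPM in Treg-like cells (1.73), 106 and 173 CPM in CD8 T-like cells (1.63), 157 and 280 CPM in the Cd4 cells without Foxp3 (1.78) and 103 and 303 CPM in NK-like cells (2.93). Of the list, 1 of 29 tested genes was called higher over all T-like cells, where 10.1% of tested genes were. In the Treg-like cells 5 of 26 were called higher (background 9.91%) and 2 lower, under the background of 11.1%. Ccnd2 thus differed in Treg-like cells whose mitotic sum was level. It was also called higher in type 2 dendritic-like cells, at 368 and 553 CPM (1.5).

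Its relative Ccnd3 (cyclin D3) was called lower in several classes, 2 of them classes where Ccnd2 was called higher. These were the Cd4 cells without Foxp3, from 26 and 23 UMIs (0.363), and the NK-like cells, from 43 and 23 UMIs (0.573). Ccnd3 stood at 49.7 and 29.1 CPM in tumour-like cells (0.587), 47.1 and 27.3 CPM in neutrophil-like cells (0.58) and 90.8 and 47.0 CPM in mature dendritic-like cells (0.517). Over all kept cells its ratio was 0.721 (0.681 to 0.763), without a call, and in macrophage-like cells it was 1.06. In tumour-like cells 0 of 27 tested genes of the list were called higher (background 5.15%) and 2 lower, near the background of 7.77%. Cdk6, a kinase partner of the D cyclins, was called higher in neutrophil-like cells at 33.5 and 51.5 CPM (1.53), in type 2 dendritic-like cells at 41.0 and 106 CPM (2.58) and in mature dendritic-like cells at 36.0 and 60.3 CPM (1.67). In type 1 dendritic-like cells Ccnd1 (cyclin D1) stood at 50.5 and 88.0 CPM (1.74), with 6 of 25 genes of the list called higher (background 9.2%) and 1 lower (background 7.3%).

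Over all T-like cells 2 of 29 tested genes of the list were called lower, under the background of 10.7%. Of these, Cdk4 (a kinase partner of the D cyclins) stood at 121 and 73.4 CPM (0.609) and Mybl2 (a factor that turns on mitotic genes) at 19.8 and 10.7 CPM (0.542). Neither was called within a subset, and the mix of subsets differed between the matrices. Cdk4 had ratios of 0.712 in Treg-like cells, 0.750 in CD8 T-like cells and 0.753 in Cd4 cells without Foxp3. Mybl2 had 0.870 in Treg-like and 0.710 in CD8 T-like cells, and was not tested in the Cd4 cells. In CD8 T-like cells 5 of 27 genes of the list were called lower (background 13.2%), among them Cdk2, Rbl1 and Cdc25b from 10 to 22 UMIs in the IL-27 matrix, and 1 was called higher (background 10.5%). Over all kept cells 1 of 30 was called lower (background 6.04%), Cdkn1c, from 50 and 26 UMIs.

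The brakes differed by class as well. Cdkn1a (p21, an inhibitor of cyclin-dependent kinases) was called lower in Treg-like cells, at 327 and 190 CPM (0.58), and in NK-like cells, at 319 and 187 CPM (0.585). It was called higher in the Cd4 cells without Foxp3, at 129 and 235 CPM (1.82). Cdkn2d (p19, an inhibitor of CDK4 and CDK6) was called lower in Treg-like cells (0.663) and neutrophil-like cells (0.503) and higher in type 1 dendritic-like cells, from 21 and 50 UMIs. E2f4, a repressor of the E2F family, was called lower in neutrophil-like (0.534), C1q-low (0.654) and mature dendritic-like cells (0.658). Its ratio was below 1 in every class where it was tested, and was 0.749 (0.702 to 0.799) over all kept cells. The calls therefore do not set those classes apart. In fibroblast-like cells 15 of 27 genes of the list were called lower (background 15.6%) and 1 higher (background 12.4%). Myc stood there at 170 and 80.9 CPM and Ccnd3 at 61.6 and 35.9 CPM, in a class of 56 and 75 cells.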

How the data were processed

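The authors deposited raw UMI counts, 1 matrix per group, with no normalization. Per the submitters' processing notes, Cell Ranger 4.0 and Seurat 3.2.0 were used with the build mm10. The matrix headers name Cell Ranger 4.0.0, per the file headers. Cells with at least 500 UMIs, at least 200 genes and under 10% mitochondrial UMIs were kept. Cells were classed by 16 marker gates (a minimum of UMIs and of UMIs per 10000), cells that met gates of several lineages were set aside, and counts were summed per class and matrix. Gate thresholds were set after the marker distributions were seen, never from cell cycle genes. The 39 genes and all lists were chosen with earlier results of these data known. Named from the list of entry and brake genes were those called by the 1.5-fold rule with 50 or more UMIs in the group where they were higher, at most 3 per direction and class. Ccnd3 in the Cd4 cells without Foxp3 and in the NK-like cells was under 50 UMIs. It was named outside this rule, to stand beside Ccnd2. All 39 genes are named.

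Poisson intervals were used for levels, Clopper-Pearson intervals for shares and conditional binomial intervals for ratios. Thinning used seed 1. No doublets were removed. Scrublet called 0 control and 167 IL-27 cells, so it did not work on the control matrix, and removal of the 8% of cells with the highest scores (849 and 799) was an alternative. Transcript lengths were the longest of each gene in GENCODE vM21 (build mm10), found for 99.6% of 32285 rows. Promoters and starts are RefSeq's, 1 per gene. The scripts were tested on simulated data and ran in Python 3.11 with numpy 2.4.6, scipy 1.17.1, pandas 2.3.3 and scanpy 1.11.5. Alternatives covered filters, gates, doublets, shared barcodes, scaling and thinning. V(D)J libraries were not analysed here. The alternatives without 5 companions, with length centring, with gate minimums per 10000 UMIs doubled and with cells grouped by leaning were chosen after the data were seen.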

Additional observations from a re-analysis of the deposited data

How the results depend on the processing

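For 41 results, 418 alternative values were computed, of which 341 stayed within the spread allowed, 75 moved and 2 reversed. Scaling by housekeeping genes reversed the CD8 T-like ratios to 1.03 (mitotic) and 1.01 (S phase). The direction of the mitotic difference was kept in every alternative run for tumour-like (1.30 to 1.59), type 1 dendritic-like (1.43 to 2.02) and C1q-low cells (0.568 to 0.776). With gate minimums per 10000 doubled, the mitotic ratio was 1.35 in tumour-like, 1.43 in type 1 dendritic-like and 0.776 in C1q-low cells (3 genes called lower), and the S-phase ratio was 2.00 in type 1 dendritic-like cells. Housekeeping scaling gave mitotic ratios of 1.59 and 1.78 and S-phase ratios of 1.19 and 1.62 in tumour-like and type 1 dendritic-like cells. Without the 3 richest cells, mitotic ratios were 1.30 (5 genes called) and 2.02 (17 called), and S-phase ratios 1.13 and 1.60. Median centring gave 1.47 (mitotic) and 1.11 (S phase) in tumour-like cells, and length centring 1.14 (S phase). At 50 UMIs a gene, 5 mitotic genes were called lower in C1q-low cells. The cycling share ratio of C1q-low cells was 0.754 when thinned to 2000 UMIs and 0.774 with 1 companion UMI. The planned grouping of tumour-like cells by companions of a single phase placed 0 mitotic genes in G2/M and 1 S-phase gene in S. It placed 2 and 3 with at least 3 UMIs in a phase, 19 and 10 when thinned to 2000 UMIs, and 19 and 9 by leaning. The cause of these moves was not tested. No paired analysis was possible because each group was 1 matrix. Depth limits genes under 20 UMIs, and pooled cells give no measure of spread between mice.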

Other observations

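Cells that met no gate also carried the 39 genes. Their S-phase sum was 299 CPM (285 to 314) in 2144 control cells and 459 CPM (440 to 480) in 2047 IL-27 cells. Their mitotic sum was 207 and 299 CPM, at median depths of 1651 and 1208 UMIs. Among cells that met gates of several lineages (270 and 253), the mitotic sum was 358 and 368 CPM. The 3 IL-27 neutrophil precursor-like cells, with a median of 28738 UMIs, held a mitotic sum of 2010 CPM, against 77.8 CPM in 18 control cells with a median of 2519.5 UMIs, and these few cells allow no comparison.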
